A study of Mus musculus with 12 samples.

Results

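Genes of the Sox, Fox, Pax, Tbx, Lhx, Gata and Klf families and of the Hoxb, Hoxc and Hoxd clusters were examined for peaks of Jmjd2a (also Kdm4a) and Jmjd2c (also Kdm4c), a pair of histone demethylases. They were taken by symbol, from the gene names beside the peaks of either protein and from the authors' table of start sites bound by both. That gave 59 genes, out of 161 RefSeq genes whose symbols match the same pattern. Of the 161 genes, 160 have a curated transcript, among 26219 such genes in all. The cells were mouse L-GMP (leukaemic granulocyte-macrophage progenitors) transformed with MLL-AF9, of genotype Jmjd2a/b/cf/f;Rosa26::CreERT2 on a C57BL/6 background. All of them therefore derive from cells with floxed Jmjd2a, Jmjd2b and Jmjd2c alleles and a Cre recombinase that tamoxifen switches on. They grew in 20% serum with 10 ng/ml IL-3. Libraries labelled Ctrl came from untreated cells and those labelled OHT from cells given 500 nM 4-hydroxytamoxifen for 96 h. There was 1 library per condition for Jmjd2a and for Jmjd2c. In cells of this genotype OHT is meant to delete the floxed alleles, so OHT cells may lack the proteins immunoprecipitated. Whether the deletion occurred was not checked. The 12 libraries also include trimethylated lysine 9 and lysine 36 of histone H3, with 2 per condition, which were not analysed here. The peak lists hold positions and no value per library. Depth is unknown, no replicate error exists for a peak, OHT was not compared with Ctrl, and the cell type could not be checked against marker expression.

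These families encode factors that set cell identity in the embryo and in adult tissues. Sox proteins bind DNA through a high mobility group box, Fox proteins through a forkhead domain, Pax proteins through a paired domain, Tbx proteins through a T-box, Lhx and Hox proteins through a homeodomain, and Gata and Klf proteins through zinc fingers. A few members act in blood, such as Gata2 in stem and progenitor cells, Klf1 in red cells, Pax5 in B cells and Tbx21 in T cells. Many others serve other tissues, and their CpG-rich promoters are known in stem cells as sites of Polycomb repression. Jmjd2a and Jmjd2c are enzymes that demethylate histone H3 at lysine 9 and lysine 36.

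The promoters of 4 members are shown, 1 for each of the 4 patterns found, so that the sequence behind the CpG values given further on can be seen. They are single examples and do not stand for the class medians: Sox4, with a ratio of 0.679, lies below the median of 0.93 for genes near both. Each run is the 250 bases before the RefSeq start in GRCm38.p6 (the primary assembly of mm10), read in the direction of the gene, with CpG in capitals. Sox4 (chr13:28953700-28953949, minus strand, 11 CpG) had peaks of both proteins. Lhx2 (chr2:38351058-38351307, plus strand, 24 CpG) had Jmjd2a alone, and Gata2 (chr6:88198414-88198663, plus strand, 24 CpG) had Jmjd2c alone. Pax7 (chr4:139832969-139833218, minus strand, 13 CpG) had neither and is the middle one by CpG ratio (0.581) among protein-coding genes of that class. The RefSeq start of Sox4 lies 17 bp from the start site in the deposited tables.
Sox4: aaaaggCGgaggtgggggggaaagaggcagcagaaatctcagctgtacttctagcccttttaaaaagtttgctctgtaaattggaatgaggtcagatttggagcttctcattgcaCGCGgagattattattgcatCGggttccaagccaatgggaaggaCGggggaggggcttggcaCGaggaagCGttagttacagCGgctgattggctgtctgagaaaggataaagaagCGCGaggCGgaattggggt
Lhx2: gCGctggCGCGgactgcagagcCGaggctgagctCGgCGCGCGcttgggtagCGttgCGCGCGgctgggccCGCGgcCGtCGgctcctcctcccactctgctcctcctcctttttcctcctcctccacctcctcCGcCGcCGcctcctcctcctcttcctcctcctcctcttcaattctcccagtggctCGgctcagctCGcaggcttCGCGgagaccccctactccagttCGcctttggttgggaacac
Gata2: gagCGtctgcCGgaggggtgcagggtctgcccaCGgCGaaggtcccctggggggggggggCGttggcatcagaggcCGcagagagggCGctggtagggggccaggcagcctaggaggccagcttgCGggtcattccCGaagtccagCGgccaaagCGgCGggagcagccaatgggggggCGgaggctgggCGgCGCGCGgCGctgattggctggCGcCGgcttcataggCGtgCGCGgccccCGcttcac
Pax7: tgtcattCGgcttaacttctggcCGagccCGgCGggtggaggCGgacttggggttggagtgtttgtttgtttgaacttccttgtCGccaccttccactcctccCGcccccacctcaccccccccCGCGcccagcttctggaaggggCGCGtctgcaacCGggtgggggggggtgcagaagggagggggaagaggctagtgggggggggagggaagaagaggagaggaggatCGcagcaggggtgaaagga

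Peaks lay at the starts of a minority of the genes, and they were unevenly spread over the families. A gene was called near a protein when a peak lay within 1000 bp of a start site named for it. Jmjd2a was near 42 of the 160 genes (26.2%, exact 95% binomial interval 19.6 to 33.8), beside a background of 27.4% of all 26219 genes. Jmjd2c was near 34 (21.2%, 15.2 to 28.4), beside 37.9% of all genes. Both were near 27 genes (16.9%, 11.4 to 23.6), beside 24.5%. Jmjd2a alone was near 15 genes (9.38%, 5.34 to 15), beside 2.86%, and Jmjd2c alone near 7 (4.38%, 1.78 to 8.81), beside 13.4%. Either protein was near 49 genes (30.6%), beside 40.8% of all genes. The remaining 111 genes (69.4%) had neither, beside 59.2% of all genes. Of those 111, 10 are named in the tables only for more distant peaks. With the wider 50% of each peak list these comparisons shrank or turned. Both were then near 10.6% of the family genes beside 10% of all genes, Jmjd2a near 19.4% beside 16.5%, and Jmjd2a alone near 8.75% beside 6.46%. Jmjd2c was near 13.8% beside 22.9%. Among protein-coding genes only, with the full peak lists, Jmjd2a was near 28.5% of the 144 family genes beside 32.3% of all 21031. Jmjd2c was near 22.9% beside 44.6%, and both near 18.1% beside 29%. Jmjd2a alone was near 10.4% beside 3.34%, and 66.7% had neither beside 52%. Binomial intervals cover counting error over genes, which are not replicates, and no test over samples was possible.

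Klf genes mostly had a peak, Fox genes about as often as genes in general, and the other families less often in count. In the Klf family 14 of 17 genes had one, with both proteins at 7, Jmjd2a alone at 4 and Jmjd2c alone at 3. The 3 Klf genes with neither are 17.6% of the family (3.8 to 43.4), beside 59.2% of all genes. In the Fox family 21 of 47 had one, with 15, 4 and 2 in the same order, and 55.3% had neither (40.1 to 69.8), close to the 59.2% of all genes. The Sox family had peaks at 5 of 23 genes (3, 1 and 1). The Tbx and Lhx families had Jmjd2a alone at 2 of 15 and 2 of 9 genes. Gata2 was the single Gata gene of 8 with a peak, of Jmjd2c. None of the 10 Pax genes had one. The Hoxb, Hoxc and Hoxd genes had peaks at 4 of 31, namely Hoxb4 and Hoxb13 with both proteins and Hoxd8 and Hoxd13 with Jmjd2a. The interval for the share with neither held the 59.2% of all genes for Sox (56.3 to 92.5), Lhx (40 to 97.2) and Gata (47.3 to 99.7). The same was true of Hoxb (51.6 to 97.9) and Hoxd (44.4 to 97.5) taken singly. It lay above 59.2% for Tbx (59.5 to 98.3), Pax (69.2 to 100) and the Hoxb, Hoxc and Hoxd genes together (70.2 to 96.4). Of the 16 noncoding genes among the 160, Foxd2os alone had a peak.

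**Figure D1:**
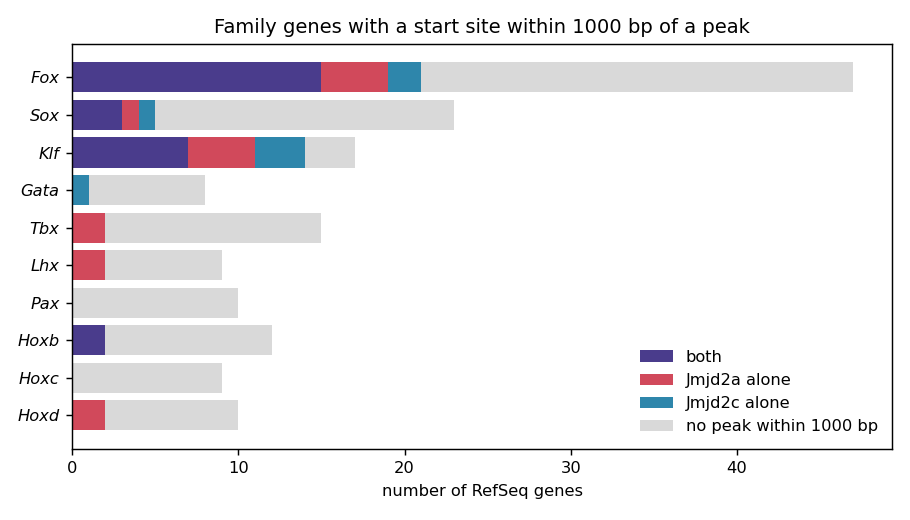
Number of RefSeq genes in each family (x axis) by the protein whose peak lay at most 1000 bp from the start. Klf has peaks at 14 of 17 genes and Fox at 21 of 47, whereas all 10 Pax and all 9 Hoxc bars are grey.

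Among the forkhead genes with both proteins, those with the widest Jmjd2a peaks were Foxc1, Foxj3, Foxk2 and Foxo1. Foxc1, needed for the eye, skeleton and vessels, carried Jmjd2a over 2744 bp (chromosome 13, 31806158 to 31808901) and a Jmjd2c peak of 2275 bp lying wholly within it. The Jmjd2a peak covered 56.5% of the length of this short gene. Foxo1, a factor restrained by AKT signalling, had a Jmjd2c peak of 3142 bp (chromosome 3, 52267302 to 52270443), wider than 99.2% of the 9053 Jmjd2c peaks near start sites. It enclosed 2 Jmjd2a peaks, of 1740 bp over the start and of 695 bp beginning 1174 bp downstream. Foxo3, its relative, had 2 Jmjd2c peaks (2576 and 869 bp) and 2 Jmjd2a peaks (1517 and 677 bp), the second pair lying 1066 bp and 1183 bp upstream of the start.

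Foxk2, a forkhead factor of metabolism and autophagy, had 1832 bp of Jmjd2a and 2025 bp of Jmjd2c, and its paralogue Foxk1 had peaks of 1034 and 1325 bp. Foxj3 had peaks of 1845 and 2200 bp over a start region shared with AA415398. Foxm1, which drives mitotic genes, shared its peaks of 823 and 1832 bp with Rhno1. Foxp1, active in lymphocyte development, had narrower Jmjd2a signal, with peaks of 550 and 1459 bp. Foxp4 and Foxn2 each had 2 Jmjd2a peaks that overlapped a single Jmjd2c peak. At Foxp4 those of 653 and 494 bp lay wholly within 1915 bp of Jmjd2c. At Foxn2 the one of 1248 bp lay within 2393 bp of Jmjd2c, and 633 of the 735 bp of the other did. At most of the forkhead genes with both proteins the widest Jmjd2c peak was wider than the widest Jmjd2a peak. The order was reversed at Foxc1, at Foxa1, a pioneer factor of endoderm, and at Foxd1, a factor of the kidney stroma. Foxa1 had 1085 bp of Jmjd2a and 351 bp of Jmjd2c, and Foxd1 had 1565 bp and 873 bp.

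Some starts were shared with a neighbour. Foxd2 and the noncoding gene Foxd2os lie head to head on chromosome 4, under Jmjd2a peaks of 1336 bp (114907851 to 114909186) and 595 bp and a Jmjd2c peak of 1750 bp (114908327 to 114910076). Foxa3, a hepatic factor, was reached 56 bp upstream of its start by a 1664 bp Jmjd2c peak and 246 bp upstream by a 442 bp Jmjd2a peak. The tables name these peaks for Sympk, and Foxa3 enters through the authors' deposited table of co-bound start sites.

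Sox4, a factor of progenitor cells, had the widest Jmjd2a peak of the families (3339 bp; chromosome 13, 28950849 to 28954187), second among 6908 Jmjd2a peaks near start sites. It reached 505 bp upstream and 2833 bp downstream of the start and covered 59.6% of the gene. The Jmjd2c peak there was 2401 bp wide. A second pair lay upstream, 1950 bp of Jmjd2a 4370 bp from the start and 1358 bp of Jmjd2c inside it. Sox13, studied in T cells, had peaks of 1379 and 1332 bp, and Sox30, a gene of the male germ line, had 942 bp of Jmjd2a and 393 bp of Jmjd2c.

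The Klf genes with both proteins were Klf1, Klf3, Klf4, Klf5, Klf9, Klf10 and Klf11. Klf5, known from the gut epithelium, had 1326 bp of Jmjd2a and 1615 bp of Jmjd2c over its start. Klf10 and Klf11, induced by transforming growth factor beta, had 1012 and 1094 bp and 1038 and 1738 bp. At Klf10 neither peak covered the start, with gaps of 26 and 160 bp on the downstream side. Klf9, a target of hormone receptors, had a Jmjd2a peak of 927 bp upstream and 2 Jmjd2c peaks of 480 and 1072 bp on either side of the start. At Klf1, the factor of globin genes, both peaks (828 and 1480 bp) began downstream of the start, at 646 and 399 bp. Klf4, a pluripotency and monocyte factor, had the narrowest pair. Its Jmjd2a peak of 341 bp and Jmjd2c peak of 345 bp lay 253 and 357 bp upstream, and 2.95% and 0.199% of peaks near start sites were narrower. Klf3 had Jmjd2a peaks of 789 and 387 bp under 2170 bp of Jmjd2c.

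In the Hox clusters, Hoxb4, which expands blood stem cells when overexpressed, had a Jmjd2a peak of 752 bp beginning 333 bp downstream of its start (chromosome 11, 96318600 to 96319351). It lay within a Jmjd2c peak of 2268 bp. Hoxb13, a gene of the tail and prostate, had 551 bp of Jmjd2a inside 1667 bp of Jmjd2c. Hoxb3, the neighbour of Hoxb4, had no peak named for its start. The RefSeq gene Hoxb3 spans the Hoxb4 peaks, and 1.84% of it was covered by Jmjd2a and 5.55% by Jmjd2c. Its strand was not available, so its start could not be checked. The Hoxb genes span 173939 bp, of which 2 Jmjd2a peaks covered 0.496% and 4 Jmjd2c peaks 3.41%. The Hoxc genes span 115726 bp and held 1 peak of each protein. The Hoxd genes span 96918 bp and held 3 Jmjd2a peaks and 1 Jmjd2c peak.

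**Figure D2:**
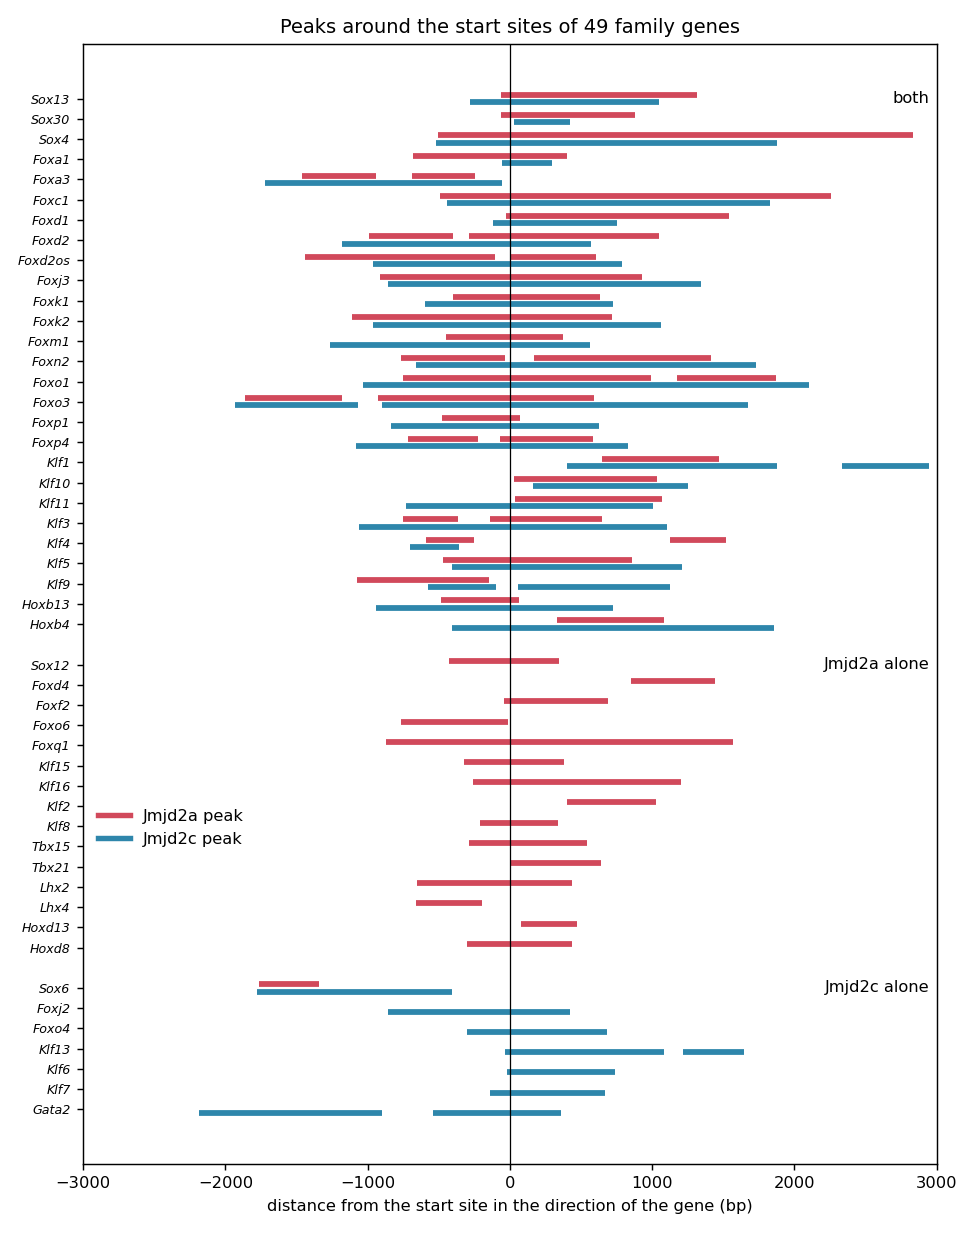
Extent of every Jmjd2a peak (red) and Jmjd2c peak (blue) named for, or called at, the 49 family genes that have a peak at most 1000 bp from the start. The x axis is the distance from that start in the direction of the gene, cut at 3000 bp on each side. Sox4, Foxc1 and Foxo1 carry the longest lines, and the 15 genes near Jmjd2a alone have no blue line in the window.

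The 15 genes with Jmjd2a and no Jmjd2c come from 6 of the groups. They are Foxd4, Foxf2, Foxo6, Foxq1, Klf2, Klf8, Klf15, Klf16, Lhx2, Lhx4, Sox12, Tbx15, Tbx21, Hoxd8 and Hoxd13. Foxq1, a forkhead gene of epithelia and hair, had the widest of these peaks (2436 bp; chromosome 13, 31557302 to 31559737), placed 12 by width among the 6908 Jmjd2a peaks near start sites. Klf16 followed with 1461 bp and Lhx2, which maintains progenitors in forebrain, eye and hair follicle, with 1093 bp. Tbx15, a factor of skeleton and fat, had 835 bp and Sox12, a relative of Sox4, had 777 bp. Foxo6, a brain-enriched member of its group, had 753 bp that ended 16 bp upstream of the start. Hoxd8 had 739 bp and Foxf2, a mesenchymal factor, 727 bp, both over the start. Klf15, a metabolic regulator, had 708 bp. Tbx21, the master factor of type 1 helper T cells, had 634 bp that began 5 bp downstream. Klf2, a factor of vessel lining and lymphocyte quiescence, had 629 bp beginning 400 bp downstream. Foxd4 had 591 bp beginning 851 bp from the start, Klf8 548 bp, Lhx4, a pituitary factor, 462 bp, and Hoxd13, a digit patterning gene, 400 bp. Thus the widths ran from 400 to 2436 bp with a median of 727 bp, beside 661 bp for the 756 Jmjd2a peaks at all genes with Jmjd2a alone.

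The nearest Jmjd2c peak was usually far from these genes. It lay between 4317 bp (Hoxd13) and 248032 bp (Foxq1) from the start site, with a median of 78311 bp, and over 10000 bp away for 14 of the 15. These distances run from the starts named in the deposited tables, and another RefSeq start of Klf8 lies 35 bp from a Jmjd2c peak. Over all 751 genes with Jmjd2a alone the median was 53303 bp, and 88.9% were over 10000 bp away. The 15 genes are part of those 751. Foxq1, Foxf2 and Foxc1 stand side by side in 252466 bp of chromosome 13. This stretch held 5 Jmjd2a peaks, at all 3 genes and at 2 places upstream of Foxc1 (458 bp and 725 bp wide), and a single Jmjd2c peak, at Foxc1.

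Jmjd2c accompanied Jmjd2a at a smaller share of the family genes than of all genes. Jmjd2c was also near 64.3% of the 42 family genes near Jmjd2a (interval 48 to 78.4), and near 89.5% of the 7183 genes near Jmjd2a in all. Conversely, Jmjd2a was near 79.4% of the 34 family genes near Jmjd2c (62.1 to 91.3), beside a background of 64.7% of 9938. In the Fox family the first share was 78.9% (54.4 to 93.9), in the Klf family 63.6% (30.8 to 89.1). The Fox interval holds the 89.5% of all genes. With the wider 50% of each peak list the first share was 54.8% of 31 family genes beside 60.8% of 4321 genes, so the gap between them was smaller there. The list holds positions alone, and whether Jmjd2c signal below its calling threshold was present at the 15 genes cannot be told.

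A second list of developmental factors, which shares no gene with the list above but includes the T-box gene Eomes, was set beside it. It holds 75 genes of groups such as Nkx, Dlx, Irx, Zic, Hand, Neurog, Gli and Snai. Jmjd2a was near 17 of the 75 (22.7%, 13.8 to 33.8), beside 27.4% of all genes. Jmjd2c was near 6 (8%, 2.99 to 16.6), beside 37.9% of all genes and 21.2% of the family genes. Both were near 5 genes (6.67%, beside 24.5%), Jmjd2c alone was near Six4, and Jmjd2a alone was near 12 (16%, 8.55 to 26.3, beside 2.86%). Those 12 include Dlx1, Neurog2, Nkx6-1, Nkx6-2, Eomes, Zic2, Zic5 and Snai1. The share of the genes near Jmjd2a with Jmjd2c was 29.4% (10.3 to 56), beside 64.3% of the family genes and 89.5% of all genes. The differences between the lists were not tested.

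**Figure D3:**
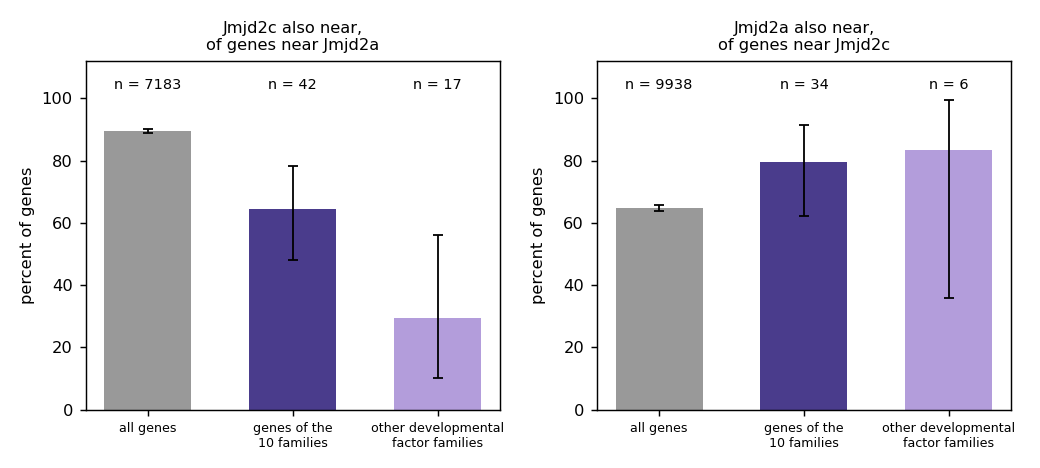
Share of genes near one protein that are also near the other (y axis, percent), with exact 95% binomial intervals and the number of genes. Jmjd2c accompanies Jmjd2a at 89.5% of all genes, 64.3% of the family genes and 29.4% of the other developmental factors.

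Jmjd2c without Jmjd2a was found at Gata2, Klf6, Klf7, Klf13, Foxj2, Foxo4 and Sox6. Gata2 had a series of 4 Jmjd2c peaks upstream of and over its start (chromosome 6, 88189266 to 88199026 from first to last). The peak over the start was 903 bp wide, and the others lay 900, 3982 and 8563 bp upstream with widths of 1286, 1306 and 836 bp. The most distant of them enclosed a Jmjd2a peak of 418 bp. Foxj2 had a 1280 bp Jmjd2c peak over the start, and Jmjd2c and Jmjd2a peaks of 889 and 883 bp that overlapped by 597 bp, at 18008 and 18300 bp upstream. Klf13, a lymphocyte factor, had 1123 bp over its start, Foxo4 986 bp, Klf7 810 bp and Klf6, a widely expressed early response factor, 759 bp. At Sox6, a repressor in red cell and cartilage development, a Jmjd2c peak of 1375 bp lay 405 bp upstream of the start and held a Jmjd2a peak of 423 bp, 1342 bp upstream.

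Sox6 is one of the genes close to the 1000 bp limit. The peaks just inside it were a second Jmjd2a peak of Foxa3 at 938 bp, the upstream Jmjd2c peak of Gata2 at 900 bp and the Jmjd2a peak of Foxd4 at 851 bp. Just outside were peaks at Foxo3 (1066 and 1183 bp), Klf4 (1123 bp), Foxo1 (1174 bp), Klf13 (1214 bp) and Sox6 (1342 bp). Those at Foxo3, Klf4, Foxo1 and Klf13 accompany another peak of the same protein nearer to the start.

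The 10 genes that the tables name only for peaks over 1000 bp away had shared and single peaks. Hoxd12 was closest, with Jmjd2a (488 bp) inside Jmjd2c (700 bp), 1838 and 1687 bp upstream. Hoxc8 had peaks of 625 and 754 bp that overlapped by 618 bp, at 8356 and 8363 bp. The same pair lies inside the RefSeq gene Hoxc6, 669 and 676 bp from an end of that gene. Hoxc6 has no named start and its strand was not available, so it was counted with neither. Tbx2, a repressor in heart and limb, had 1339 bp of Jmjd2a inside 1966 bp of Jmjd2c at 10860 and 10366 bp. Foxe1, the thyroid forkhead gene, had a shared pair at 38743 and 38659 bp (552 and 997 bp). A Jmjd2c peak not named for Foxe1 lay closer to it, at 30591 bp. Foxn3 had the widest pair, 1825 bp of Jmjd2a inside 2099 bp of Jmjd2c within the gene, 56623 and 56374 bp from the named start, and a Jmjd2a peak of 730 bp 17603 bp upstream. Jmjd2a alone was found 4485 bp inside Tbx1 (764 bp), 10691 bp inside Lhx9 (452 bp) and 12384 bp inside Lhx6 (750 bp). Single Jmjd2a peaks were also named for Lhx1os (72042 bp) and Sox5os3 (144997 bp). A Jmjd2c peak not named for Lhx1os lay closer to it, 11470 bp from its start. Over all family genes, 27 Jmjd2a peaks and 21 Jmjd2c peaks were named at over 1000 bp, of which 40.7% and 42.9% overlapped the other protein. For all such peaks these shares were 31.5% of 2066 and 40.2% of 1468.

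Start sites missing from the authors' annotation change the reading of a few of these distances. The 5′ end of the RefSeq Foxp1 gene (minus strand, chromosome 6, 99522746) lies inside a Jmjd2c peak of 3656 bp that the deposited table places 84722 bp from a Foxp1 start. Likewise the 5′ end of Foxn3 lies inside a Jmjd2c peak of 1981 bp named for 1700064M15Rik, and that of Gata2 (88193891) inside the 1306 bp Jmjd2c peak named 3982 bp away. At Klf8 the Jmjd2c peak near the other RefSeq start is 704 bp wide and named at 121603 bp. Gata3, a T cell factor with no named peak, has its RefSeq 5′ end 799 bp from a Jmjd2a peak of 1414 bp that covers the start of 9230102O04Rik. Sox6os, a noncoding gene, has a RefSeq start under the Jmjd2c peak of Sox6 and 410 bp from its Jmjd2a peak. With the starts of the RefSeq promoter table added, Klf8 and Sox6os would be called near both. Genes whose strand was not available could not be checked for a 5′ end. Among them, Foxh1, counted with neither, had a Jmjd2c peak over an end of the gene. That peak covered 12.9% of Foxh1, and a Jmjd2a peak lay 31 bp from an end. Hoxc6 is another such gene. Which end is the 5′ end was not determined.

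Among genes of blood lineages, those without a peak at a named start were Gata1 (red cells and megakaryocytes), Gata3, Pax5, Foxp3 (regulatory T cells) and Hoxb3. From the RefSeq starts, the nearest peaks of Jmjd2a and Jmjd2c lay 89127 and 19445 bp away at Gata1, 44608 and 44775 bp at Pax5 and 4775 and 4725 bp at Foxp3. With both proteins were Klf1, Klf4, Foxo1, Foxo3, Foxp1, Sox4 and Hoxb4. Jmjd2c alone was at Gata2, Klf6, Klf13 and Foxo4, and Jmjd2a alone at Klf2, Tbx21 and Lhx2. A missing call does not show that the protein was absent.

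Peaks at the family genes were of about the usual width, with an upper tail. The 46 Jmjd2a peaks near them had a median of 806 bp (quartiles 604 and 1306), beside 761 bp (530 and 1062) for all 6908 near a start site. The 35 Jmjd2c peaks had a median of 1459 bp (1029 and 1970), beside 1366 bp (1031 and 1729) for 9053. In the widest 10% of such peaks were 10 of the 46 (21.7%, at least 1375 bp) and 8 of the 35 (22.9%, at least 2106 bp). Foxc1, Foxj3, Foxo1, Foxo3 and Sox4 were in that 10% for both proteins. At genes with both, 15 of 31 Jmjd2a peaks (48.4%) lay wholly inside a Jmjd2c peak, beside 63.7% of 6001 overlapping peaks in all. Of the Jmjd2c peaks near family genes, 6 of 35 (17.1%) overlapped 2 or more Jmjd2a peaks, at Foxa3, Foxd2, Foxn2, Foxo1, Foxp4 and Klf3, beside 5.11% of all those near start sites. The named start lay under 27 of 35 Jmjd2c peaks (77.1%) beside 91% of 9053, and under Jmjd2a peaks in 27 of 46 (58.7%) beside 66.7%. In the direction of the gene, the peak centre was downstream of the start for 60.4% of 48 Jmjd2a and 63.9% of 36 Jmjd2c placements, where a peak shared by Foxd2 and Foxd2os counts for each. At the windows of the co-bound table these shares were 60.1% and 67.3%.

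CpG content, which the choice of genes did not use, was compared over RefSeq promoters (250 bp before to 50 bp after the start). Entries were matched for 106 of the 161 genes. Where a family gene had several entries, the one closest to its named start was used. For genes with no named start, most of those near neither, the entry at the lowest coordinate was used. On the minus strand that is the most downstream entry. The choice of entry thus differs between the classes, and its effect on these ratios and the promoter counts that follow was not tested. The CpG ratio, observed over expected from the C and G content, had a median of 0.93 (quartiles 0.67 and 0.98) at 20 genes near both. It was 0.79 (0.64 and 0.90) at 11 near Jmjd2a alone, 0.78 (0.75 and 0.83) at 6 near Jmjd2c alone and 0.62 (0.29 and 0.74) at 69 near neither. For all genes the medians in the same order were 0.81, 0.74, 0.79 and 0.26. Family genes without a peak thus had a higher median than other genes without one. Klf1 (0.15), Sox6 (0.20) and Klf8 (0.23) had low ratios and a peak within 1000 bp. The Klf1 peaks began 399 and 646 bp downstream and the Sox6 peak lay 405 bp upstream, outside the sequence measured. The Sox6 peak covers Sox6os, whose ratio is 0.750. The Klf8 entry lies 297 bp from the named start. Of 44 matched genes with a named start, 33 had an entry at the same start. Sox1 (1.07), Hoxb8 (0.97), Lhx1 (0.96) and Pax5 (0.88) had high ratios and no peak within 1000 bp.

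**Figure D4:**
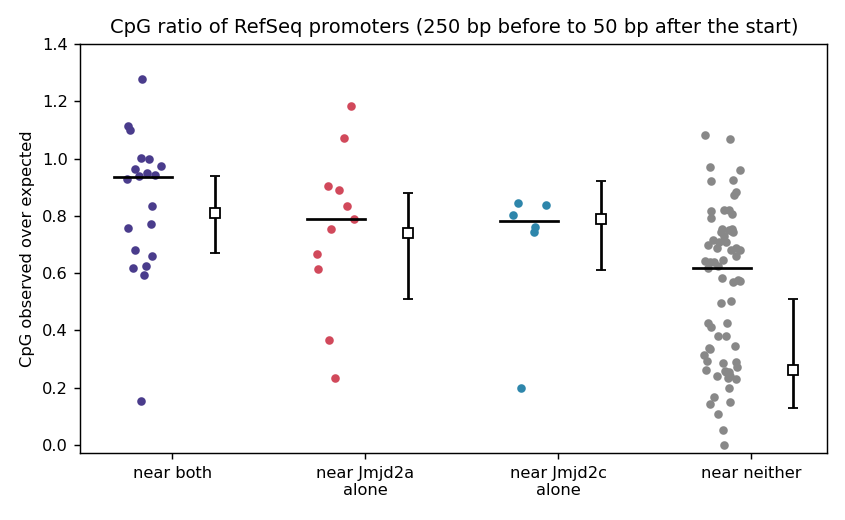
CpG observed over expected (y axis) of RefSeq promoters by the protein near the start. Points are family genes with their median as a line, and open squares with bars are the median and quartiles of all genes. The grey points, with a median of 0.62, lie mostly above the square of all genes without a peak, at 0.26.

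A ratio of at least 0.6, a limit set after the values were seen, was found in 67 of the 106 family promoters. Of these 67, 32 (47.8%) were near a peak of either protein, beside 76% of 8973 promoters of all genes. Split after the values were seen, 23 of 30 such promoters of Fox and Klf genes (76.7%) had a peak and 9 of 37 of the other families (24.3%). In the second list of developmental factors it was 9 of 38 (23.7%), and 4 of 14 (28.6%) below that ratio. Below the ratio of 0.6, 5 of 39 family promoters (12.8%) had a peak, beside 16.8% of 10555. The GC box GGGCGG, searched on both strands as GGGCGG or CCGCCC, was present in 75% of the family promoters near both, 72.7% of those near Jmjd2a alone, 83.3% near Jmjd2c alone and 49.3% near neither. Over all genes the shares in the same order were 68.2%, 67.6%, 68.2% and 26.1%, and 44.6% of all 19528 promoters held it. These letters contain CpG, so both measures move together, and a match describes sequence only.

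Genes that work with these factors were counted in the same way. Of 12 partners of GATA factors in blood, Jmjd2c was near 6 (50%, 21.1 to 78.9) and Jmjd2a near 3 (25%, 5.49 to 57.2), and both intervals hold the shares over all genes. Ldb1 and Trps1 had both proteins, Tal1 had Jmjd2a alone, Zfpm1, Cbfa2t3, Med1 and Brd3 had Jmjd2c alone, and Lmo2, Lyl1, Runx1, Spi1 and Zfpm2 had neither. Of 16 regulators and targets of FOXO factors, 14 were near Jmjd2c (87.5%, 61.7 to 98.4) and 11 near Jmjd2a (68.8%, 41.3 to 89). Both were at 10 (62.5%, 35.4 to 84.8), among them the kinase genes Akt1, Sgk1 and Sgk3 and the targets Bcl2l11, Cdkn1b and Ccng2. The 13 core Polycomb genes all had Jmjd2c (100%, 75.3 to 100) and 7 had both (53.8%, 25.1 to 80.8), including the methyltransferase genes Ezh1 and Ezh2. The background for these counts is 37.9% for Jmjd2c, 27.4% for Jmjd2a and 24.5% for both over all genes. Over all protein-coding genes, a closer background for these lists, the shares are 44.6%, 32.3% and 29%.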

How the data were processed

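Chromatin immunoprecipitation sequencing was done for Jmjd2a, Jmjd2c and 2 histone marks. The submitters' processing notes name build mm10 and the tools bedtools 2.25.0, Bowtie 0.12.7 and SAMtools. The sources used here do not give how peaks were called, against which control, from which libraries or whether pooled. The authors deposited peak positions and distances in bp (8977 Jmjd2a and 10521 Jmjd2c peaks), per the file headers, with the nearest RefSeq start site, and 6940 co-bound windows around start sites, of 1 kb on either side. The criterion for a bound window is not given. Depth is unknown, and calls depend on it.

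A gene was near a protein when a start site named for it lay within 1000 bp of a peak, or when it was in the table of co-bound windows. A RefSeq gene table (GRCm38.p6) held 16875 of the 17007 accessions, and gene names served where none matched. Peaks overlapping by at least 1 bp were called shared. Positions are printed counting from 1, and strands come from the tables or the promoter table. Every Jmjd2a peak with a named start carries a distance whose sign follows coordinates, not the gene. No set test was run. Shares carry exact (Clopper-Pearson) 95% intervals for counting error. The distance and overlap steps were tested on simulated data. Python 3.11.15, numpy 2.4.6, pandas 2.3.3, scipy 1.17.1 and matplotlib 3.10.9 were used.

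Members and lists were chosen with earlier results of these data known. Values were given for up to 4 genes per family near both with the widest Jmjd2a peak, up to 3 near Jmjd2c alone, all near Jmjd2a alone, up to 2 with the closest peak beyond 1000 bp, and named blood lineage genes. Other genes were named from a list or after their values were seen. Promoters were shown for the gene near both with the widest Jmjd2a peak and 1 gene near neither of median CpG ratio; Lhx2 and Gata2 were added after the values were seen.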

Additional observations from a re-analysis of the deposited data

How the results depend on the processing

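Counts of family genes near Jmjd2a, Jmjd2c and both (42, 34 and 27) stayed within 1.5 times with windows of 500 and 5000 bp, with protein-coding genes only, and with further start sites (an alternative added after the data were seen). If the peak had to cover the start, Jmjd2a was near 27 genes and both near 17. With the wider 50% of peaks, Jmjd2c was near 22 family genes and both near 17, and over all genes the counts were 4321 for Jmjd2a, 5993 for Jmjd2c and 2626 for both. The family's shortfall against all genes for both proteins was lost there (10.6% beside 10%), as was most of its excess for Jmjd2a alone (8.75% beside 6.46%). Median widths, overlap shares and median CpG ratios moved by less than their 95% intervals under every alternative run for them. No paired analysis was possible because the peak lists carry no value per library, and for the same reason no replicate could be left out. Unknown depth and calling thresholds limit every absence of a peak.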
